A study of Mus musculus with 1 sample.

Results

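Integrins, laminins and the proteins that link them in basement membranes were examined in the ovarian surface epithelium of wild-type mice aged 3 months. Members were chosen by gene name and not by level: integrin alpha subunits, integrin beta subunits, laminin chains and the linkers Nid1, Nid2, Hspg2, Agrn and Dag1, each with at least 1 probe set assigned to a single gene symbol. The rule found 39 genes with 85 probe sets among 18193 named genes. Members, and the gene lists and complexes below, were chosen with earlier results of these data known. Itga11 and Itgad had no such probe set in the annotation used and were not analysed here. The sample was total RNA from ovarian surface epithelial cells, the simple layer that covers the ovary, on a single Affymetrix mouse array. The series design names 3 genotypes, of which 1 wild-type sample was analysed here. No mutant allele, treatment or strain was part of this group's labels, and the number of mice pooled, if any, was not given in the sources used here. With 1 array there was no comparison between samples, no replicate error and no test, and every statement below describes this 1 library.

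Integrins are receptors made of an alpha and a beta subunit that hold cells to the matrix and join it to the actin cytoskeleton. Laminins are trimers of an alpha, a beta and a gamma chain that polymerise into the sheet on which epithelia rest. Nidogens and perlecan tie that sheet to the collagen IV network, and dystroglycan and laminin-binding integrins anchor cells to it. In the ovary a basement membrane of this kind separates the surface epithelium from the tunica albuginea.

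A gene was called above background when its brightest probe set exceeded an intensity of 46.5. Background was taken from 126 probe sets of olfactory, vomeronasal and taste receptor genes and of keratin-associated proteins, and their 95th percentile set the limit. Of the 39 members 25 were above it, or 64.1%, against 62.8% of all named genes. Named genes with the same number of probe sets as the members would give 66.8%. The share of members above the limit was therefore close to that of genes in general, and what follows is about which members passed. The median level was 7.52 on the log2 scale for members and 7.06 for all genes, a description only. Probe sets differ in affinity, so the level of 1 gene is not set against that of another.

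RefSeq promoter windows were found for 26 of the 39 members, in assembly GRCm38.p6. The windows of Itgav, Itgb5 and Itgb6 are shown because Itgav, which was above the limit, forms a receptor with both of these beta subunits, of which Itgb5 was above the limit and Itgb6 was not. They were chosen after the values were seen. Each run is the 250 bases before an annotated start, read on the gene's strand, with CG dinucleotides in capitals. The Itgav window is chr2:83724147-83724396 on the plus strand, and that of Itgb5 is chr16:33829415-33829664 on the plus strand. The 2 windows of Itgb6 are chr2:60673694-60673943 and chr2:60722604-60722853, both on the minus strand.
Itgav: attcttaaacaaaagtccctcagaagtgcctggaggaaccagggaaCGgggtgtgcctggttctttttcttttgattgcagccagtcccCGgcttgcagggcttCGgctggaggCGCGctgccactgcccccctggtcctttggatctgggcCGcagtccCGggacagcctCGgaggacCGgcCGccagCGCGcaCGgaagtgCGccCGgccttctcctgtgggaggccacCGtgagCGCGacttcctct
Itgb5: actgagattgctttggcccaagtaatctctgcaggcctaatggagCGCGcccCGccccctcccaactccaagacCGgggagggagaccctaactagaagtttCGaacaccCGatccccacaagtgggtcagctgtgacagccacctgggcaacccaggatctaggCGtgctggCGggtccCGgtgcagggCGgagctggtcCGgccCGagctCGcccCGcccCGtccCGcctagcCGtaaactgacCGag
Itgb6, window 1: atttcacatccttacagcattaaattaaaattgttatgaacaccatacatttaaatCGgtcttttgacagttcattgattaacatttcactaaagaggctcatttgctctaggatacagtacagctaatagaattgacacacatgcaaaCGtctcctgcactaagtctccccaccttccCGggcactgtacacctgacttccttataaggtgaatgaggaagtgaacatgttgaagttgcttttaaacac
Itgb6, window 2: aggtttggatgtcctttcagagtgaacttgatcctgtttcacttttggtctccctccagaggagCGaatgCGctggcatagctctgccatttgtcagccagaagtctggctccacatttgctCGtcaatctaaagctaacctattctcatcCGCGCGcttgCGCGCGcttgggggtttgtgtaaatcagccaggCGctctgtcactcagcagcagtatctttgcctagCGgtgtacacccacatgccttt

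The Itgav and Itgb5 windows each held 18 CG dinucleotides, and the Itgb6 windows held 3 and 11. Over the 21 windows of 18 members above the limit the median was 16, from 0 for Lama2 to 36 for a window of Dag1. Over the 10 windows of 8 members not above it the median was 5.5, from 2 to 12. The difference is not particular to these families, since all measured genes above the limit had a median of 16 and all those not above it a median of 5. The GC box letters GGGCGG, counted on both strands with overlaps, occurred in 13 of the 21 windows of members above the limit and in 2 of the 10 others. These shares, 61.9% and 20%, stand beside 58.2% of the windows of all measured genes above the limit and 29.3% of those not above it. Over all 32851 windows in the table the share was 32.7%. The letters TATAAA, searched on both strands, were in none of the 31 windows of members, against 6.46% of windows of all measured genes above the limit, 13.3% of those not above it and 12.4% of all windows. A match of letters is a description and not a binding site, and windows of the same gene can overlap.

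**Figure D1:**
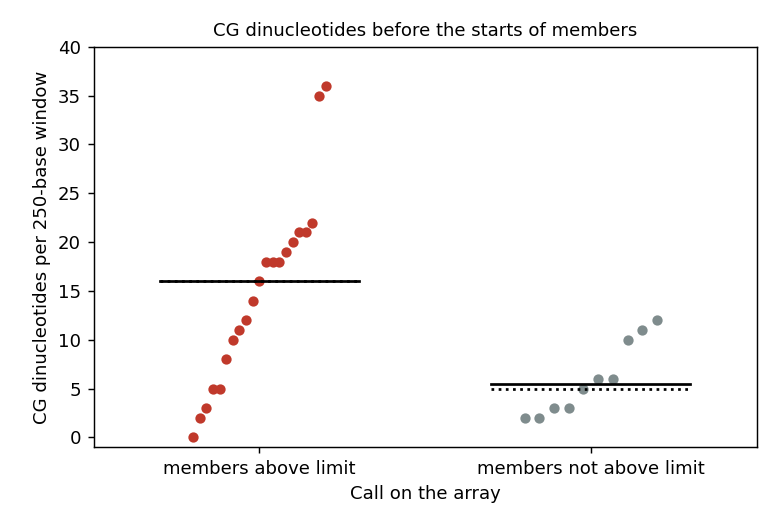
Number of CG dinucleotides in the 250 bases before annotated starts (y axis), for members above and not above the background limit (x axis). Each point is 1 window, solid lines are the members' medians of 16 and 5.5, and dotted lines are the medians of 16 and 5 over all measured genes of the same call; the dotted line at 16 lies under the solid line.

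All 3 laminin-binding subunits and all 4 that recognise the Arg-Gly-Asp motif were above the limit, as was 1 of 3 measured collagen-binding subunits. Neither Itga4 nor Itga9 was above it, nor was any of the 4 measured leukocyte subunits. In all, 8 of 16 measured alpha subunits were above the limit. Named genes with the same numbers of probe sets as these 16 would give 67.5%. The counts by ligand class depend on the limit. At the 90th percentile of the background probe sets, 25.5, 14 of 16 alpha subunits passed, including 3 of 3 collagen-binding and 3 of 4 leukocyte subunits. When a gene's lowest probe set stood for it, 4 of 16 passed, the 3 laminin-binding subunits and Itga2b. The difference between classes was not tested.

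Every probe set of the laminin-binding alpha subunits was above the limit. Itga3, which pairs with Itgb1 in the main laminin receptor of many epithelia, had intensities of 1139, 436 and 99. Itga6, which can pair with Itgb1 or with Itgb4, had 732 and 255. Itga7, a laminin receptor best known from muscle, had 1737 on its single probe set. All 6 probe sets of these 3 genes were above the limit, against 55.1% of all named probe sets.

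Collagen receptors were divided. Itga1, whose receptor binds collagen IV among others, had 338 on 1 probe set and 20 on the other, so its call rests on a single probe set. Itga2, a collagen receptor of epithelia and platelets, had 29, and Itga10, a collagen receptor of cartilage, had 36, both under the limit.

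Receptors for fibronectin, vitronectin and related Arg-Gly-Asp ligands were above the limit as genes, while their probe sets disagreed. Itgav, which binds vitronectin and latent TGF-beta, had intensities of 8240, 149, 27, 12 and 10, and 2 of these 5 passed. Itga5, the fibronectin receptor subunit, had 358, 68, 32 and 28, with 2 of 4 above the limit. Itga8, the receptor subunit for nephronectin, had 131 and 14. For Itgav the highest and lowest probe sets differed 824-fold, and it had an SD of 4.01 between probe sets on the log2 scale. The median SD over all genes with several probe sets was 1.39.

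Itga2b, the alpha subunit of the platelet fibrinogen receptor, had 172 on its single probe set. Its known partner Itgb3 had 39 and 27, both under the limit. Of 6 measured platelet and megakaryocyte markers 2 were above the limit, with brightest probe sets between 14 and 119 over the list. Named genes with the same numbers of probe sets would give 51.4%. Pf4, a platelet chemokine, had 119, Ppbp, another, had 14, and Gp9, a subunit of the platelet adhesion receptor, had 52. The part of platelets in the Itga2b value was not tested.

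Itga4, a receptor subunit for VCAM1 and fibronectin that is common on leukocytes, had 5 probe sets between 9 and 22. Itga9, which binds tenascin-C among others, had 3 between 30 and 37. None of these 8 probe sets reached the limit, and the 5 of Itga4 stayed below it even at a limit of 25.5, the 90th percentile of the background probe sets.

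Of the leukocyte integrins, the beta subunits were above the limit of 46.5 and the 4 measured alpha subunits were not. Itgb2, the beta subunit shared by the leukocyte adhesion receptors, had 183, and Itgb7, a beta subunit of lymphocyte homing, had 135. The alpha partners of Itgb2 were not above the limit: Itgam of myeloid cells had 22, Itgax of dendritic cells had 28, and Itgal of lymphocytes had 42 and 28. Itgae, which pairs with Itgb7 and binds E-cadherin, had 34 and 31. Itgal passed with 3 of 7 alternative settings, Itgae with 2 and Itgax with 1, so that 3 of these 4 alpha subunits were above the lower limit of 25.5.

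Macrophage markers were above the limit in 8 of 9 cases, with brightest probe sets between 38 and 2142 over the list. Named genes with the same numbers of probe sets would give 60.6%. The growth factor receptor gene Csf1r had 527, 214 and 80, Adgre1 had 47, right at the limit, and Cd68 had 334. Lymphocyte markers were above the limit in 2 of 7 measured cases, between 10 and 67, against a corresponding 57.1%. The T cell genes Cd3e, Cd3d and Cd3g had 46, 39 and 10, with Cd3e just under the limit. The 2 that passed were Cd4, with 62 and 23, and Cd8a, with 67 on 1 of 5 probe sets. The part of these cells in the Itgb2 and Itgb7 values was not tested. In a mixed library, few cells of a type and little RNA per cell cannot be told apart.

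Of the 8 beta subunits 5 were above the limit, or 62.5%, against 64.5% of named genes with the same numbers of probe sets. Itgb1, the partner of 12 alpha subunits, had intensities of 4299, 3173, 115, 22, 11 and 8. Itgb5, a partner of Itgav, had 3854, 3274, 3036 and 2408, and its 4 probe sets agreed to within 1.60-fold. Itgb8, another partner of Itgav that binds latent TGF-beta, had 979. The 3 under the limit were Itgb3 at 39 and 27, Itgb4, the hemidesmosome subunit, at 39, and Itgb6, an epithelial partner of Itgav, at 12 and 11.

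**Figure D2:**
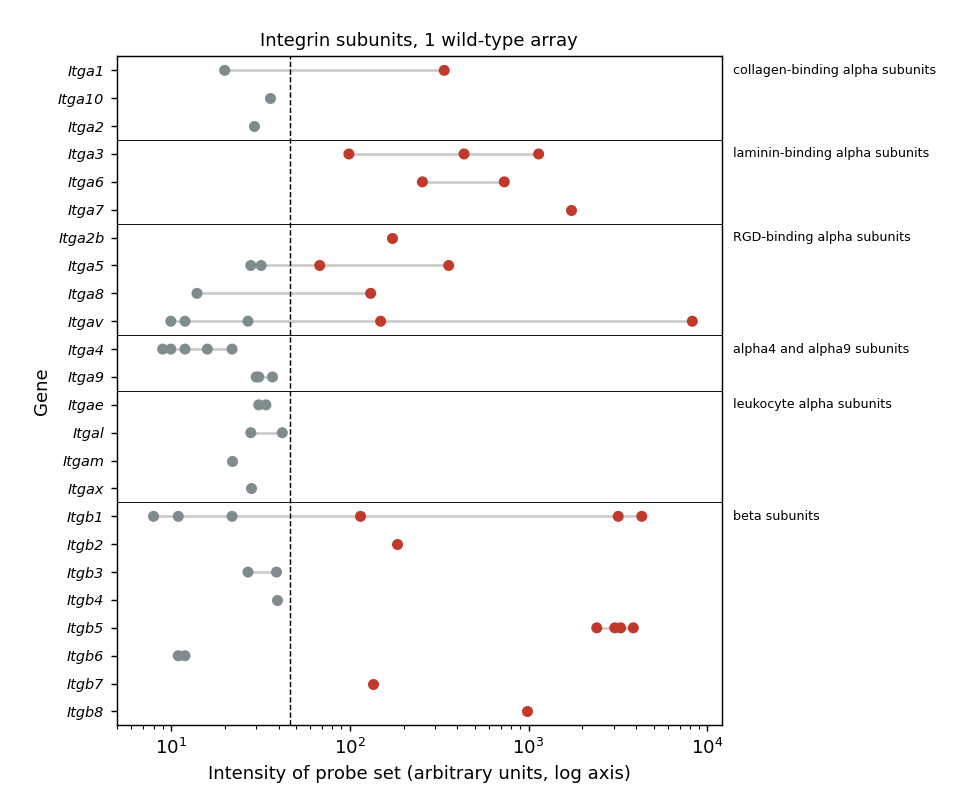
Intensity of every probe set (x axis, log scale, arbitrary units) for the 24 measured integrin subunits (y axis), grouped by ligand class. Each point is 1 probe set, red above and grey not above the limit of 46.5 (dashed line), and a bar joins the probe sets of 1 gene; Itgb5 has 4 points close together, whereas Itgav and Itgb1 reach from 10 to 8240 and from 8 to 4299.

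Integrins work as pairs, so the calls were read over the 24 known combinations of an alpha and a beta subunit. Both subunits were measured for 22 pairs, and both were above the limit in 9. Itgb1 took part in 7 of these, with Itga1, Itga3, Itga5, Itga6, Itga7, Itga8 and Itgav. The other 2 were Itgav with Itgb5 and Itgav with Itgb8. Each of the remaining 13 measured pairs had exactly 1 subunit above the limit. These include Itga6 with Itgb4, Itgav with Itgb3 and with Itgb6, and Itga2b with Itgb3. Of the single subunits, 13 of 24 measured were above the limit, or 54.2%, against 66.5% of named genes with the same numbers of probe sets. The share over comparable pairs of other genes was not computed, so the count of pairs is a description only. Transcripts of both subunits do not show that a receptor was assembled.

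The number of pairs depended on the limit and on which probe set stands for a gene. It was 18 at a limit of 25.5, the 90th percentile of the same probe sets, and 16 with olfactory and vomeronasal receptors alone as background. Itgb3, Itgb4, Itgal, Itgae, Itga9 and Itga10 passed in both settings, and Itga2 and Itgax at 25.5 only. The number of pairs was 0 when the lowest probe set stood for each gene, because Itgb1, Itgav and other subunits have probe sets at background.

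**Figure D3:**
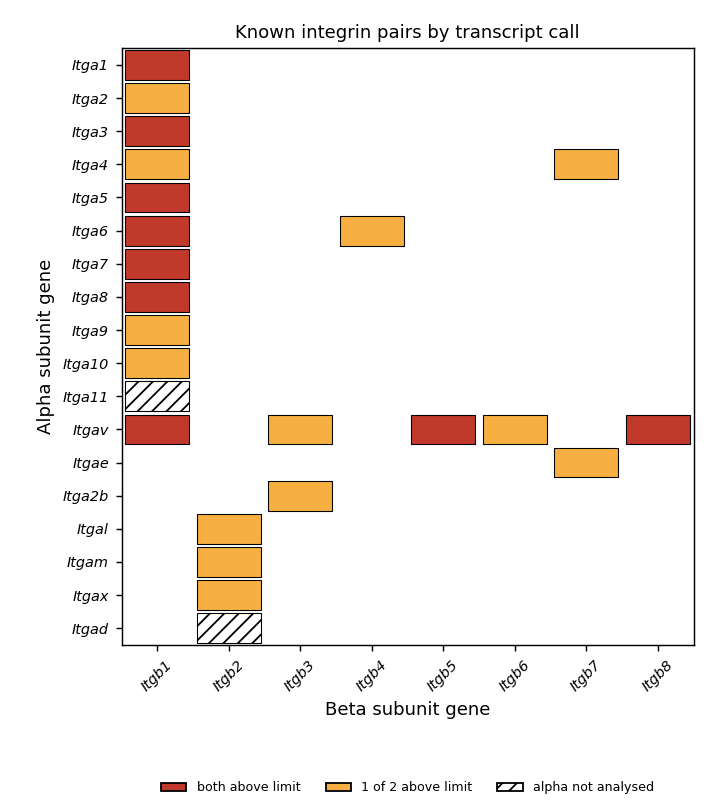
The 24 known integrin pairs, with alpha subunit genes on the y axis and beta subunit genes on the x axis. Red cells have both transcripts above the background limit (9 pairs), orange cells have 1 of 2 (13 pairs) and hatched cells have an alpha subunit that was not analysed (2 pairs); red cells lie in the Itgb1, Itgb5 and Itgb8 columns.

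Laminin chains were above the limit in 7 of 10 measured cases, against 64.7% of named genes with the same numbers of probe sets. Lama3 and Lamb3, chains known from skin, were not above it. Lama3 had 20 and 16, and Lamb3 had 24.

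Of the alpha chains, Lama5, the main alpha chain of mature epithelial basement membranes, had 1606, 724 and 15. Lama4, a short-armed chain of vessel, fat and muscle basement membranes, had 523 and 12. Lama1, a chain of embryonic basement membranes, had 120, and Lama2, the chain of muscle and nerve, had 101, each on a single probe set. All 4 also exceeded 84.75, the 99th percentile of the background probe sets.

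Of the beta chains, Lamb1 had 3817, 893, 309 and 12, and Lamb2, the beta chain of the neuromuscular junction and the glomerulus, had 561. Lamc1, the gamma chain of most laminins, had 923 and 51, the second close to the limit. Lamc3, a gamma chain of few tissues, had 39 and 37, just under it.

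Of 13 known trimers with all chains measured, 8 had all chains above the limit. They are the combinations of Lama1, Lama2, Lama4 or Lama5 with Lamb1 or Lamb2 and with Lamc1. All 8 use Lamc1, which was above the limit in all 7 alternative settings. The 5 measured trimers that were not complete use Lama3 or Lamc3. When the lowest probe set stood for a gene, Lama4, Lama5 and Lamb1 lost their calls and 2 trimers were complete, those of Lama1 or Lama2 with Lamb2 and Lamc1. The share over comparable sets of other genes was not computed, so the count of trimers is a description only. Which trimers were assembled cannot be read from transcripts.

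All 5 linkers were above the limit, against 72.4% of named genes with the same numbers of probe sets. Nid2, the second nidogen, had 4291, and Nid1 had 2462, 137 and 9. Hspg2, which encodes the heparan sulfate proteoglycan perlecan, had 2146 and 954. Agrn, the proteoglycan agrin, had 1225 and 15. Dag1, which encodes the laminin receptor dystroglycan, had 6291, 1038, 1014 and 967, all above the limit.

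**Figure D4:**
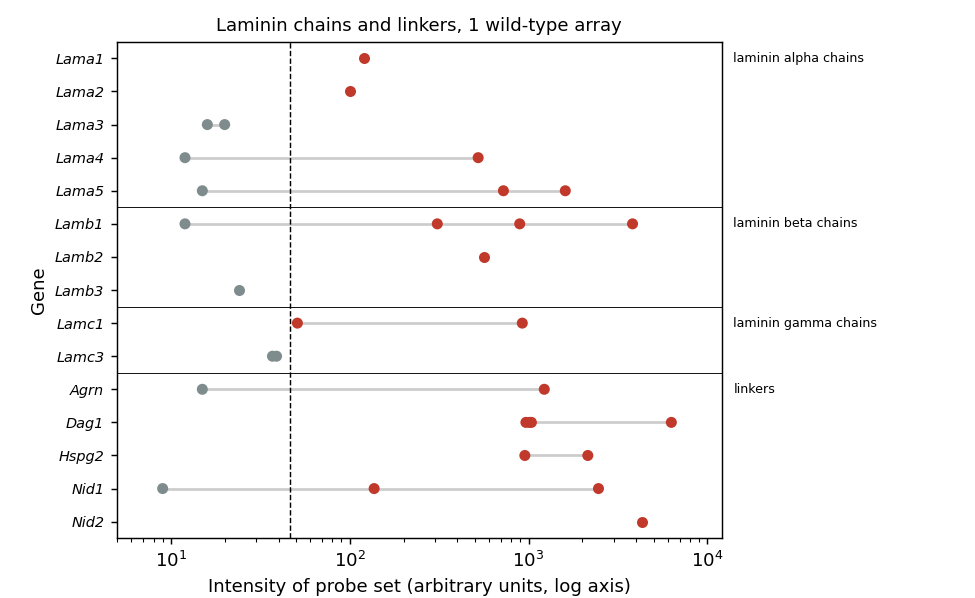
Intensity of every probe set (x axis, log scale, arbitrary units) for the 10 measured laminin chains and the 5 linkers (y axis). Each point is 1 probe set, red above and grey not above the limit of 46.5 (dashed line), and a bar joins the probe sets of 1 gene; all 5 linkers have points above the limit, while Lama3, Lamb3 and Lamc3 have none.

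Of 24 members with several probe sets 10 had probe sets on both sides of the limit, or 41.7%, against 46.7% of the 9010 genes with several probe sets. A further 6 had every probe set above it and 8 had none. The 6 were Itga3, Itga6, Itgb5, Lamc1, Dag1 and Hspg2. The other 15 members had a single probe set. Of the 85 member probe sets 44 were above the limit, or 51.8%, against 55.1% of all named probe sets. There were 11 member probe sets within 1.5-fold of the limit, of 9 genes: Itga5, Lamc1, Itgal, Itgb3, Itgb4, Lamc3, Itga9, Itga10 and Itgae.

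The intracellular partners of integrins were mostly above the limit, with 16 of 17 measured adhesion adaptors. Named genes with the same numbers of probe sets would give 74.3%. Tln1, a talin that binds beta subunit tails, had 2011, 336 and 80, Tln2 had 187, 48 and 42, and Fermt2, a kindlin, had 4723, 897 and 22. Membrane partners and inhibitors of integrins were above the limit in all 9 measured cases, against a corresponding 67.8%. Cd151, a tetraspanin that binds laminin receptors, had 6 probe sets between 77 and 9097, while Cd9 and Cd81, other tetraspanins, had 1001 and 12115.

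Hemidesmosome genes were above the limit in 5 of 6 cases, or 83.3%, against 73.9% of named genes with the same numbers of probe sets. Plec, a plakin that joins Itgb4 to keratin, had 1285, 346 and 25, and Dst, a related plakin, had 1365, 195, 21 and 15. Col17a1, the transmembrane collagen of hemidesmosomes, had 10. Itgb4, with 39, was also under the limit but is not counted in this list. Krt5 and Krt14, keratins of stratified epithelia, also passed, with 52 and at most 56, close to the limit. Both were under 84.75, the 99th percentile of the background probe sets. Cd151, counted above among the membrane partners, is in this list too and also passed.

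Other basement membrane proteins were above the limit in 16 of 20 cases. Named genes with the same numbers of probe sets would give 65.9%. Col4a1 and Col4a2 encode the common collagen IV chains: Col4a1 had 18113 and 7749, and Col4a2 had 11160. Col4a3, a chain of specialised basement membranes, had 125 and 78. Ligands of integrins other than laminins were above the limit in 9 of 11 measured cases, or 81.8%, against a corresponding 61.7%. Fn1, fibronectin, had 22422 and 424, Vtn, vitronectin, had 16 and 10, and Tnc, tenascin-C, had 9090 and 267. The transcript of fibronectin was above the limit beside those of Itga5 and Itgb1, whereas that of vitronectin was not above the limit beside those of Itgav and Itgb5.

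The partners of dystroglycan were above the limit in 8 of 10 measured cases for the dystrophin complex, against 77.0% of named genes with the same numbers of probe sets. Dmd, dystrophin, had 827, 460, 10 and 9, Utrn, its relative utrophin, had 1360, 52 and 16, and Sgca, a sarcoglycan of striated muscle, had 29. All 5 measured enzymes that add the laminin-binding sugars to dystroglycan were above it, against a corresponding 59.3%. Of the genes for adding the first mannose, Pomt1 had 105 and Pomt2 had 107 and 90, while Pomgnt1, which extends it, had 440. Co-receptors of agrin and laminin were above the limit in 4 of 6 cases, or 66.7%, against a corresponding 64.9%. The agrin receptor genes Lrp4 and Musk of the neuromuscular junction had 13 and 24, while Bcam, a receptor for Lama5, had 979.

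**Figure D5:**
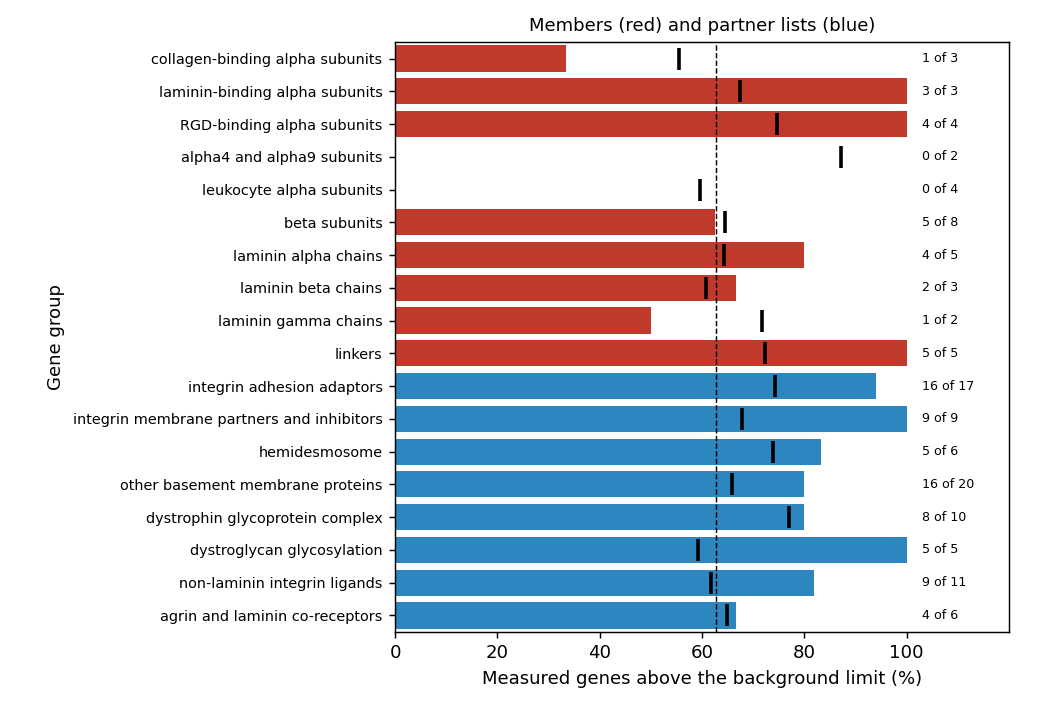
Percentage of measured genes above the background limit (x axis) for the 10 classes of members (red) and 8 lists of partners (blue) on the y axis, with counts at the right. The dashed line is the 62.8% of all named genes and each tick is the share among named genes with the same numbers of probe sets. Laminin-binding and Arg-Gly-Asp-binding alpha subunits, linkers, integrin membrane partners and inhibitors, and dystroglycan glycosylation genes are at 100%. Leukocyte alpha subunits and the class of Itga4 and Itga9 are at 0.

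The label of the sample was checked against markers of the epithelium and of other cells. All 10 markers of surface epithelium and mesothelium were above the limit, with brightest probe sets between 2047 and 20836. Among them the simple-epithelial keratin genes Krt7, Krt8 and Krt18 had 8204, 4573 and 3377 on their brightest. All 8 fibroblast markers were above it, between 307 and 29972, with Col1a1, Col1a2 and Col3a1, chains of fibrillar collagens, at 8290, 29972 and 22640. Smooth muscle and pericyte markers passed in 7 of 8 cases, between 16 and 23141, with Acta2, Tagln and Myh11, contractile genes, at 23141, 22357 and 764. Endothelial markers passed in 1 of 8 cases, between 11 and 1813, with Pecam1 and Cdh5 at 14 and 23 and Kdr, the member that passed, at 1813. Neutrophil markers passed in 1 of 6 cases, between 12 and 60, with S100a8, S100a9 and Csf3r at 13, 12 and 17. Granulosa markers passed in 4 of 5 measured cases, between 34 and 1438, with Amh, Fshr and Foxl2 at 58, 34 and 321. Schwann cell and skeletal muscle markers passed in 3 of 4 measured cases, between 12 and 75, with Sox10, Acta1 and Ckm at 75, 75 and 63. Named genes with the same numbers of probe sets would give 59.8% for surface epithelium, 68.5% for fibroblasts and 69.1% for smooth muscle. The corresponding shares were 50.3% for endothelial, 47.3% for neutrophil, 57.1% for granulosa and 68.5% for Schwann cell and skeletal muscle markers. The last list, at 75%, was close to its share. The part of fibroblasts and smooth muscle in the levels of Itga1, Itga5, Itga7, Itga8, Lama2, Lama4 and the linkers was not tested.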

How the data were processed

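Total RNA of 1 wild-type sample was extracted with a column kit, labelled with biotin and hybridised to an array, per the labels' protocols. The authors deposited 1 intensity for each of 45101 probe sets, as whole numbers on a linear scale from 6 to 32341. Per the submitters' processing notes affy and RMA were used, which corrects background, normalizes between arrays and summarises probes; neither versions, nor the arrays normalized together, nor the step back to linear whole numbers was given. RMA shrinks differences between low intensities.

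Probe sets were named by the platform annotation table: 34945 had a single symbol, 932 several and 9160 none, and 64 controls were left out. All 39 members matched the mouse reference table of GRCm38.p6 by gene number. Log2 of the brightest probe set was the level of a gene, and the limit was the 95th percentile of 126 background probe sets of 112 genes. The number of arrays, 1, limits precision, and no comparison between samples could be tested. All members are named, and the first 3 measured genes of each partner and marker list; others were named after their values were seen. Members, lists and complexes were chosen with earlier results of these data known. The code that makes the calls was run on a simulated table whose genes were drawn far above or below the limit. That run checks the code only and cannot show how well genes near the limit are called. Alternatives were other percentiles and background genes, the mean or lowest probe set, and removal of probe sets whose identifiers end in _a_at, _s_at or _x_at. Software was Python 3.11.15 with pandas 2.3.3, NumPy 2.4.6 and, for plots, matplotlib 3.10.9.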

Additional observations from a re-analysis of the deposited data

How the results depend on the processing

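Over 7 alternatives, 15 members stayed above the limit and 5 stayed at background (Itga4, Itgam, Itgb6, Lama3 and Lamb3) wherever they could be measured. At the 90th percentile of the background probe sets, 25.5, 21 integrin subunits instead of 13 and 18 pairs instead of 9 were above it, while all genes went from 62.8% to 73.2%. With olfactory and vomeronasal receptors alone as background 16 pairs were complete, and 70.5% of all genes passed. When a gene's lowest probe set stood for it, 15 members, 8 integrin subunits, 4 laminin chains, 3 linkers, 0 pairs and 2 trimers were above the limit, and 39.7% of all genes were. Without marked identifiers 29 member probe sets instead of 44 were above the limit, which follows from the smaller number used, and 35 members had a probe set left. The 99th percentile and the mean of probe sets changed no count by more than 1.5 times, nor did Y-linked genes as background, which gave 26 members. The mean of probe sets ended the call of Itga8. With 1 array, differences between probe sets cannot be split into affinity and level. Rounding to whole numbers matters most near background.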

Other observations

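Genes whose symbols resemble those of integrins but that are not subunits by the naming rule were described after their values were seen. Itgb1bp1, which binds the Itgb1 tail and is counted above among membrane partners and inhibitors, had 757. Itgb3bp, a centromere protein despite its name, had 102 on 1 of 5 probe sets and 15 to 23 on the others. Itgb2l, a relative of Itgb2, had 40, 35 and 13, Itgbl1 had 36, and Itgb1bp2, a muscle protein, had 12, all under the limit of 46.5.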
